A study of Mus musculus with 6 samples.

Results

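The lysosomal genes described here are 41 genes for the soluble acid hydrolases of the lysosome, their lipid-binding helper proteins, proteins of the lysosomal membrane, progranulin and the transcription factor TFEB. They were a given list, matched by the symbol of the Ensembl identifier in the count tables, and all 41 were found among 54752 genes. Cathepsins and subunits of the proton pump were not part of the list. RNA-seq counts came from the whole right hippocampus of male wild-type C57BL/6 mice (C57BL/6J in the study's methods), with 1 library per mouse, sampled 3 weeks after surgery. The labels give a time of 14 weeks, which is read here as the age of the mice. In 3 mice, bilateral carotid artery stenosis (BCAS) had been made by microcoils placed around both common carotid arteries, which lowers blood flow to the forebrain. The other 3 mice had sham surgery, the same operation without microcoils. The hippocampus was sequenced as bulk tissue, so more cells of a type and more RNA per cell cannot be told apart in any value below.

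Lysosomes break down material taken up from outside the cell or delivered by autophagy. Glycosidases and sulfatases remove sugars and sulfate groups from glycolipids, glycoproteins and glycosaminoglycans, lipases cleave lipids, and small proteins such as saposins lift lipids out of membranes for the enzymes. Inherited loss of many of these proteins causes a lysosomal storage disease, often with damage to the brain. In the brain, phagocytic microglia hold many lysosomes, while neurons and other glia also depend on them. TFEB, with its relatives TFE3 and MITF, activates many lysosomal genes through E-box sites with the core CACGTG, known as CLEAR elements when extended to a longer motif.

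Promoter windows of the list were searched for that core because TFEB itself is a member. RefSeq windows of build GRCm38.p6 run from 250 bases before to 50 bases after the transcription start, and 37 of the 41 genes had at least 1. Galns, Npc1, Plbd2 and Asah1 had none. The core CACGTG stood in a window of 10 of the 37 genes (27%): Arsa, Cln3, Gaa, Gla, Glb1, Lamp1, Lgmn, Mcoln1, Naglu and Sgsh. Of 27025 genes with a window, 8.09% held it. The extended palindrome TCACGTGA, which contains CACGTG, stood in windows of Cln3, Gla and Mcoln1, or 8.11% of the 37, compared with 1.12% of all genes. GAGGAAGT, a sequence of the kind bound by the myeloid factor PU.1, was searched on both strands and stood in the windows of Gla and Gusb (5.41% of the 37), compared with 3.69% of all genes. It shares no bases with the other motifs.

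The windows of Gla (chrX:134600956-134601255, minus strand), Mcoln1 (chr8:3500269-3500568, plus strand) and Cln3 (chr7:126583187-126583486, minus strand) are shown because they hold the extended palindrome. That of Lamp1 (chr8:13158911-13159210, plus strand) is shown because it holds 4 copies of the core. Those of Cd68 (chr11:69666121-69666420, minus strand) and Grn (chr11:102430257-102430556, plus strand) are shown because these genes had the largest fold changes of the list. Each is written 5′ to 3′ on the strand of the gene, and capitals mark matches to the 3 motifs.
Gla: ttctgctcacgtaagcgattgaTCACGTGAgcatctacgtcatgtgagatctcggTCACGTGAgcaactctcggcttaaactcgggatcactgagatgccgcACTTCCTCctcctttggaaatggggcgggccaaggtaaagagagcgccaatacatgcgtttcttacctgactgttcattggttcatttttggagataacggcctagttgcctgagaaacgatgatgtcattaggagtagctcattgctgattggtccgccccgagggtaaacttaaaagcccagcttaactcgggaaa
Mcoln1: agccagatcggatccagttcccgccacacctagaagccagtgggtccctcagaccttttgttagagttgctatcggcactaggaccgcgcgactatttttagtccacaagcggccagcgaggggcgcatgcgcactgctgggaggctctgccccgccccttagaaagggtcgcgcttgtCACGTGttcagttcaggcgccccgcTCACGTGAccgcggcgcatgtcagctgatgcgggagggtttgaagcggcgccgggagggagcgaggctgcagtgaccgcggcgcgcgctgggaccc
Cln3: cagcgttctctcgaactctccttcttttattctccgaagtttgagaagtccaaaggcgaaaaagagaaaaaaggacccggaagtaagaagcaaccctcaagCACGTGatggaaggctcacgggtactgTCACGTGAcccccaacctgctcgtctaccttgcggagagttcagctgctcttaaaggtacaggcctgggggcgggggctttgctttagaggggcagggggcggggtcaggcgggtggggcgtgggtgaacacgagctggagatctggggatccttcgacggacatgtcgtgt
Lamp1: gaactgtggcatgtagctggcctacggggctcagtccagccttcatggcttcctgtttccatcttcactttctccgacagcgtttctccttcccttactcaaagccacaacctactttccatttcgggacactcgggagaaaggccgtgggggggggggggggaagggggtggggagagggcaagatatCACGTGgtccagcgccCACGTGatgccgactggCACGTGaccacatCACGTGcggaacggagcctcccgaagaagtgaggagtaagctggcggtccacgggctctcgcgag
Cd68: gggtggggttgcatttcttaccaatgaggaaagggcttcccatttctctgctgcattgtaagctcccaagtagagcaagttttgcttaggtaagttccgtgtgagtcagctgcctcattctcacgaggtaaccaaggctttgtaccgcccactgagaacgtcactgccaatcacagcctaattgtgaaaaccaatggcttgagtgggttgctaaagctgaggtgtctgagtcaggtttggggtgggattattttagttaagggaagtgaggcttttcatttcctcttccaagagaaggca
Grn: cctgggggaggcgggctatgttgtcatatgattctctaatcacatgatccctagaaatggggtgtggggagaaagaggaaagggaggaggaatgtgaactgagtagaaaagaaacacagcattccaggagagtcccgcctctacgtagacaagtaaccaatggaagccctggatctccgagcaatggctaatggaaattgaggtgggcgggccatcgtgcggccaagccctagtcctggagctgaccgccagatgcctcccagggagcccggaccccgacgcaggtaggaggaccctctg

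With the start site at 0, the palindromes of Gla began at -228 and -195, that of Mcoln1 at -46 and that of Cln3 at -122. The capital stretch between the palindromes and the start of Gla is GAGGAAGT read on the other strand, beginning at -148. In Lamp1 the cores began at -61, -45, -28 and -15. The windows of Cd68 and Grn held none of the 3 motifs. A match describes letters in a window, and binding was not measured.

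The libraries held 29652456 to 35607098 counts. Reads of the 41 genes were 0.429%, 0.456% and 0.442% of all counts in sham mice 1 to 3, and 0.705%, 0.711% and 0.878% in BCAS mice 1 to 3. The share was thus higher in each BCAS mouse than in any sham mouse, and it was highest in BCAS mouse 3. Values are given below as CPM, the counts scaled to a common library size, normalized with edgeR's TMM method, and the groups were compared by the quasi-likelihood test of edgeR over 18617 genes, with Benjamini-Hochberg adjustment over these genes. A gene passed the test at an adjusted P under 0.05, and a DEG also had an absolute log2 fold change above 1, the threshold of the study.

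Markers of several cell types moved with the groups, while none passed the test for oligodendrocytes or choroid plexus. All 12 markers of microglia and macrophages rose, by 1.54 to 4.33 on the log2 scale with a median of 3.08, and their summed level was 299.9 to 320.7 CPM in sham mice and 2021, 2172 and 3202 CPM in BCAS mice 1 to 3. None of the 12 was at 0 in any mouse. Of the 12 markers of neurons 8 fell, with a median log2 fold change of -0.57 over the 12, and their sum was 8534 to 9208 CPM in sham mice and 6065, 6850 and 4886 CPM in BCAS mice 1 to 3. Of the 8 astrocyte markers 7 rose, of the 6 oligodendrocyte markers none passed the test, and of the 5 endothelial markers 3 rose. Over all genes tested, 18.0% rose and 13.2% fell. Of 8 markers of T cells, B cells and neutrophils 4 could be tested and Cd3e, Cd4 and Cd8a rose, with sums of 0.808 to 1.63 CPM in sham mice and 5.51 to 7.02 CPM in BCAS mice. None of the 5 choroid plexus markers passed the test, and they varied between mice of both groups, with sums of 985.5, 4078 and 69.8 CPM in sham mice 1 to 3 and 5918, 40.3 and 3208 CPM in BCAS mice 1 to 3. The parts of these cell types in the lysosomal values below were not tested.

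Most of the lysosomal genes rose in the BCAS hippocampus. Of the 41 genes, 34 passed the test with higher levels (82.9%), while 18.0% of all genes tested did so. None passed it with lower levels, against 13.2% of all genes tested, and 15 were up-regulated DEGs, against 8.47%. In edgeR 4 genes had a log2 fold change below 0, and 1 of them, Gaa, had an unadjusted P under 0.05. DESeq2 called 1 gene lower and limma-voom 0. In 36 genes every BCAS mouse lay above every sham mouse, which was so for 25.3% of all genes tested. The median log2 fold change was 0.83, with quartiles of 0.46 and 1.27, beside 0.02 over all genes tested. The size of the change differed widely from Cd68, 18.0-fold higher in mean CPM, to Gaa and Ids, whose means were 0.847 and 0.835 times those of sham mice without passing the test. BCAS mouse 3 had the highest level of 36 genes, BCAS mouse 2 that of Galc, and sham mouse 3 those of Gaa, Ids, Neu1 and Smpd1. BCAS mouse 3 also had the highest microglial and the lowest neuronal marker sum. Without it, 31 genes were higher and 13 were DEGs, and the median was 0.70.

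**Figure D1:**
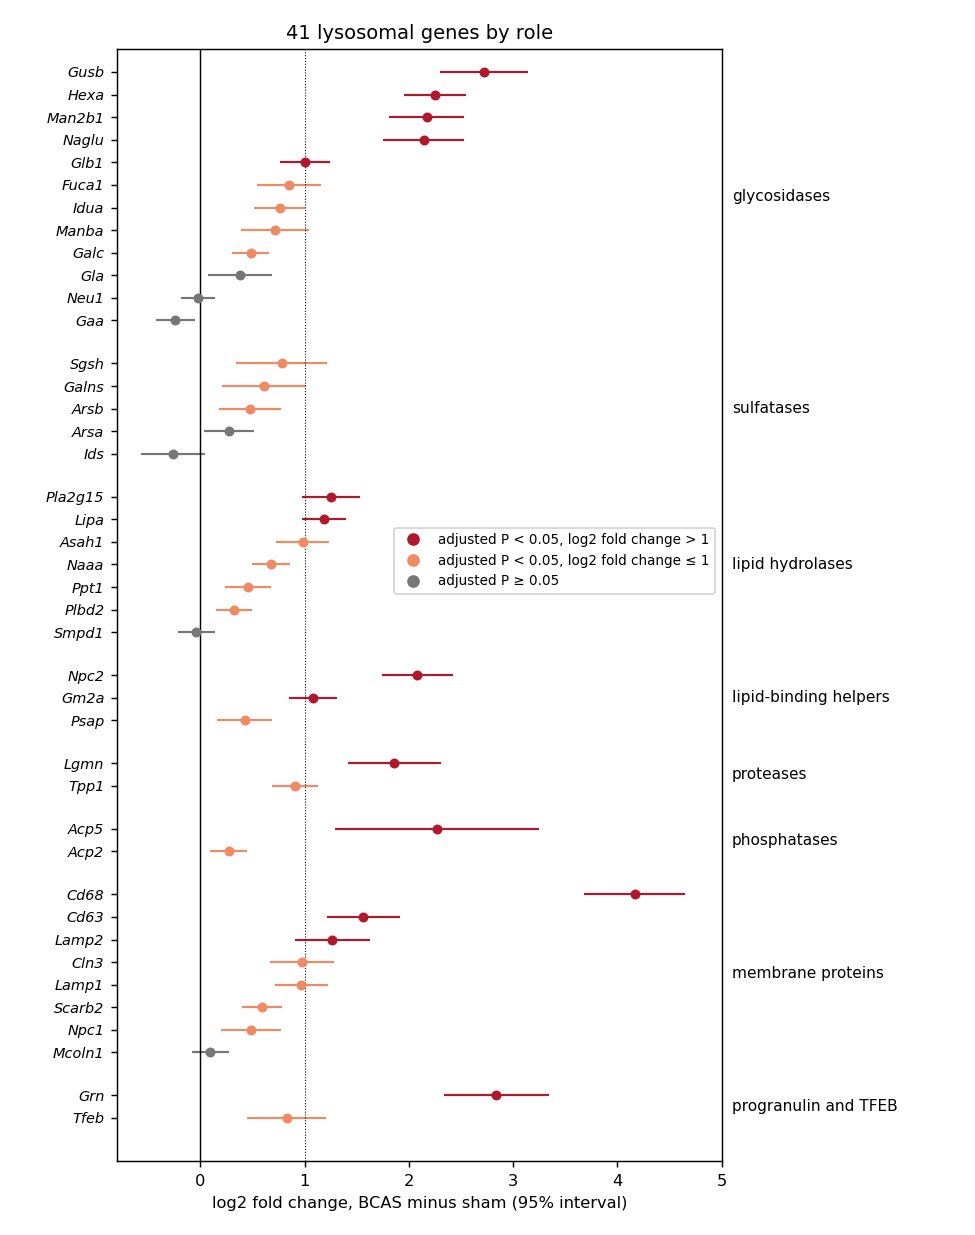
Log2 fold changes of the 41 genes, BCAS minus sham, on the horizontal axis, in blocks by role; points are estimates of edgeR from 3 against 3 mice and bars are 95% intervals, with colour for the call and a dotted line at the threshold of 1. Cd68, Grn and Gusb lie farthest to the right, and Gaa, Ids, Smpd1 and Neu1 lie at or below 0.

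Glycosidases cut sugars from glycoconjugates, and they held the widest range among the enzymes. Of 12 genes 9 rose, 5 of them as DEGs, and the median log2 fold change was 0.81. For this and each class below, the shares over all genes tested were 18.0% higher and 8.47% up-regulated DEGs. Gusb, which codes for beta-glucuronidase and is widely used as a reference gene in qRT-PCR, was measured at 15.8, 16.6 and 16.3 CPM in sham mice 1 to 3 and at 83.6, 94.8 and 143 CPM in BCAS mice 1 to 3. The sham mice were nearly equal and the groups were far apart. Its log2 fold change was 2.72 (SE 0.187, adjusted P = 2.68e-05). Hexa, the alpha subunit of beta-hexosaminidase, was measured at 48.6, 49.6 and 46.0 CPM in sham mice and at 195, 213 and 279 CPM in BCAS mice. It rose by 2.25 (SE 0.131, adjusted P = 1.66e-05), and here too every BCAS mouse lay above every sham mouse.

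Man2b1, the lysosomal alpha-mannosidase, and Naglu, which removes N-acetylglucosamine from heparan sulfate, rose by 2.17 and 2.14. Changes were smaller in the rest of the class. Glb1, the beta-galactosidase whose activity is used as a marker of senescent cells, stood at 18.7, 23.4 and 22.5 CPM in sham mice and at 43.2, 41.04 and 45.1 CPM in BCAS mice. With a log2 fold change of 1.00 (SE 0.105, adjusted P = 0.000207) it lay at the DEG threshold. The smaller rises were those of Fuca1, the alpha-fucosidase (0.85), Idua, the alpha-iduronidase (0.76), Manba, the beta-mannosidase (0.71), and Galc, which degrades the myelin lipid galactosylceramide (0.48).

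The 3 other glycosidases did not pass the test. Neu1, the lysosomal sialidase, was measured at 54.3, 59.6 and 60.1 CPM in sham mice and at 58.0, 57.8 and 55.6 CPM in BCAS mice. These groups overlapped, and the 95% interval of the log2 fold change was -0.19 to 0.14. Gaa, which degrades glycogen, stood at 377, 353 and 408 CPM in sham mice and at 320, 332 and 312 CPM in BCAS mice. It was the only gene of the list with every BCAS mouse below every sham mouse, which was so for 4229 of the 18617 genes tested. Gaa had a log2 fold change of -0.24 (interval -0.43 to -0.05, adjusted P = 0.0587). The adjusted P was 0.0149 with DESeq2, 0.0473 with RLE size factors and 0.0437 without BCAS mouse 2. Gla, the alpha-galactosidase, was at 12.3, 15.8 and 14.6 CPM in sham mice and at 17.7, 16.9 and 21.0 CPM in BCAS mice, with no overlap. Its log2 fold change was 0.38 (interval 0.07 to 0.69, adjusted P = 0.0607), and without BCAS mouse 2 the adjusted P was 0.0466.

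Sulfatases had the smallest median change of the enzyme classes. These enzymes need a formylglycine residue made by the activating enzyme SUMF1. Of 5 genes 3 rose and none was a DEG, with a median of 0.48. Sgsh, the sulfamidase of heparan sulfate breakdown, had the largest rise. It was at 5.99, 6.50 and 4.37 CPM in sham mice and at 10.1, 7.96 and 10.9 CPM in BCAS mice, with a log2 fold change of 0.78 (SE 0.193, adjusted P = 0.0151). Every BCAS mouse lay above every sham mouse, yet the adjusted P was 0.0524 without sham mouse 3, the lowest sham value.

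Galns, which acts on keratan sulfate and chondroitin sulfate, rose by 0.61 and Arsb, which acts on dermatan sulfate, by 0.48. Neither call was firm. Leaving out sham mouse 1, sham mouse 3 or BCAS mouse 3 gave an adjusted P of 0.108, 0.0951 or 0.0981 for Galns and of 0.0825, 0.0971 or 0.0792 for Arsb. Arsa, which degrades sulfatide, a lipid of myelin, was at 33.0, 26.9 and 32.8 CPM in sham mice and at 34.7, 37.6 and 39.8 CPM in BCAS mice, and it did not pass the test (log2 fold change 0.28, interval 0.03 to 0.52, adjusted P = 0.0811).

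Ids, the iduronate sulfatase, had the highest sulfatase level in CPM per kb of exon and the lowest fold change of the list. It was measured at 609, 617 and 676 CPM in sham mice and at 522, 630 and 436 CPM in BCAS mice. The groups overlapped because of BCAS mouse 2, and the log2 fold change was -0.26 (interval -0.57 to 0.05, adjusted P = 0.176). Without BCAS mouse 2 it was -0.41 with an adjusted P of 0.0179. The order of the BCAS mice in Ids, mouse 2 above mouse 1 above mouse 3, was the order of their summed neuronal markers, and the part of neurons in it was not tested.

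Lipid hydrolases rose in 6 of 7 genes, 2 of them DEGs, with a median of 0.68. Pla2g15, the lysosomal phospholipase A2, was at 25.9, 25.5 and 31.2 CPM in sham mice and at 58.5, 62.3 and 75.9 CPM in BCAS mice. The groups were well apart, with a log2 fold change of 1.25 (SE 0.122, adjusted P = 0.000141). Lipa, the acid lipase that frees cholesterol from its esters, rose by 1.19, and Asah1, the acid ceramidase, by 0.98. Naaa, an amidase of N-acylethanolamines, rose by 0.68, Ppt1, which removes palmitate from proteins, by 0.46, and Plbd2, a phospholipase B-like protein, by 0.32. The Plbd2 call was lost without sham mouse 2 (adjusted P = 0.0576) or sham mouse 3 (0.0599).

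Smpd1, the acid sphingomyelinase, stood apart from the other lipid hydrolases. It was measured at 107, 116 and 120 CPM in sham mice and at 119, 105 and 109 CPM in BCAS mice. The groups overlapped, and the log2 fold change of -0.04 had an interval of -0.22 to 0.14 (adjusted P = 0.751). Smpd1 makes ceramide from sphingomyelin and Asah1 degrades ceramide, so the enzymes on either side of lysosomal ceramide had different values in the same mice. The difference between these genes was not tested.

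Helper proteins that carry or present lipids rose in all 3 genes. Npc2, which takes up cholesterol inside the lysosome, was at 63.6, 73.1 and 63.5 CPM in sham mice and at 239, 255 and 354 CPM in BCAS mice. The lowest BCAS mouse was more than 3 times the highest sham mouse, and the log2 fold change was 2.08 (SE 0.149, adjusted P = 3.21e-05). Gm2a, the activator that presents ganglioside GM2 to hexosaminidase A, was at 65.3, 74.3 and 70.6 CPM in sham mice and at 141, 134 and 169 CPM in BCAS mice, a rise of 1.08 (adjusted P = 0.000116). Psap, the precursor of the saposins, had the highest level per exon length of the list in both groups. It was at 1373, 1569 and 1445 CPM in sham mice and at 1932, 1909 and 2046 CPM in BCAS mice, and it rose by 0.42 (SE 0.116, adjusted P = 0.0234). The groups did not overlap, but the adjusted P was 0.114, 0.0569 and 0.0774 without sham mouse 1, 2 or 3 and 0.0567 without BCAS mouse 1.

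Both proteases and both phosphatases rose. Lgmn, the asparaginyl endopeptidase legumain, which processes cathepsins, was at 83.3, 95.7 and 93.8 CPM in sham mice and at 258, 280 and 452 CPM in BCAS mice. BCAS mouse 3 stood well above the other two, and the log2 fold change was 1.86 (SE 0.196, adjusted P = 0.000208). Tpp1, a peptidase that removes tripeptides, was at 79.0, 81.7 and 74.6 CPM in sham mice and at 147, 129 and 165 CPM in BCAS mice and rose by 0.91 (adjusted P = 0.000223). The phosphatases differed in level. Acp5, the tartrate-resistant phosphatase of osteoclasts and activated macrophages, had only 13, 11 and 5 counts in sham mice, or 0.384, 0.329 and 0.146 CPM, and 1.05, 1.53 and 1.603 CPM in BCAS mice. Its log2 fold change of 2.27 therefore had the largest error of the list (SE 0.432, adjusted P = 0.00487). Acp2, the acid phosphatase found in most tissues, was at 65.7, 71.1 and 69.4 CPM in sham mice and at 77.0, 82.6 and 89.0 CPM in BCAS mice. The groups were close but did not overlap, with a log2 fold change of 0.27 (adjusted P = 0.0271) and an adjusted P of 0.105, 0.0699, 0.081 and 0.0767 without sham mouse 1, 2 or 3 or BCAS mouse 3.

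**Figure D2:**
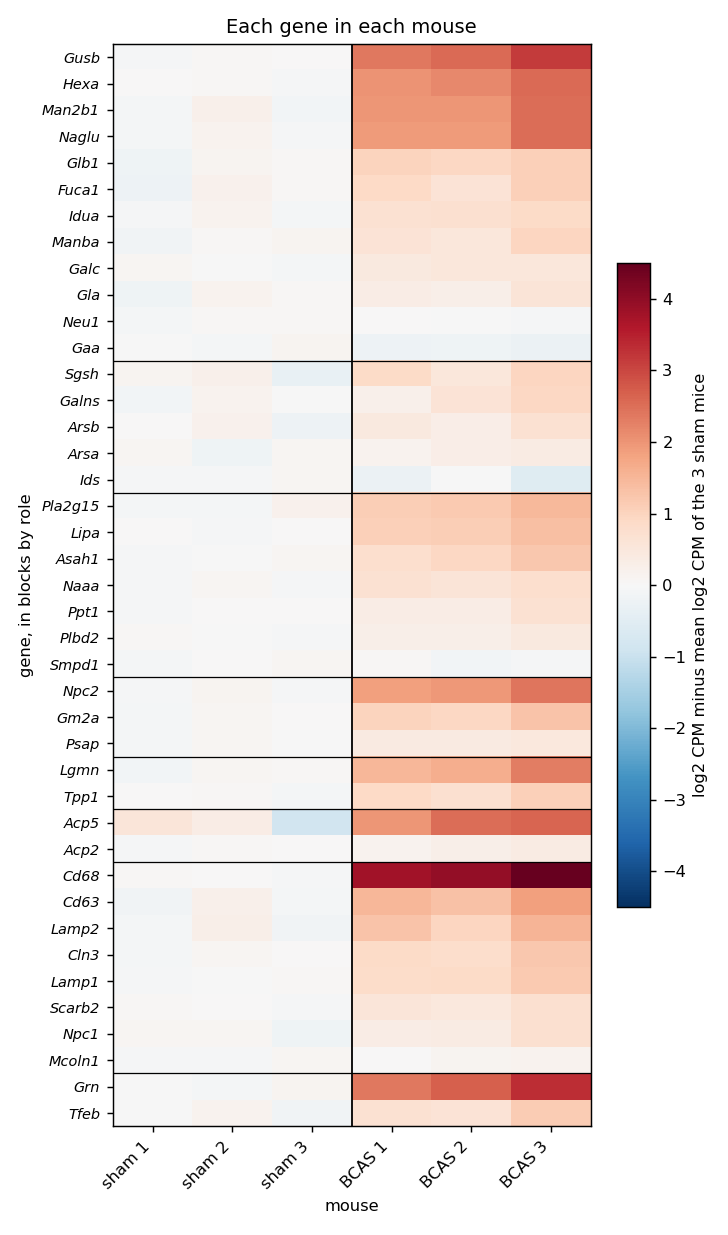
Level of each gene in each mouse, as log2 CPM minus the mean log2 CPM of the 3 sham mice, with red above and blue below that mean; rows are the genes in blocks by role and columns are the mice. The BCAS columns are red for most genes and darkest in BCAS mouse 3, while Neu1, Smpd1 and Mcoln1 stay near white and Gaa and Ids are pale blue in places.

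Membrane proteins rose in 7 of 8 genes, 3 of them DEGs, with a median of 0.97. Cd68, a heavily glycosylated protein of the lysosomes of phagocytes that is used as a marker of phagocytic microglia, had the largest change of the list. It was at 7.23, 6.91 and 6.59 CPM in sham mice and at 95.7, 108 and 169 CPM in BCAS mice. The sham mice were close together, and the rise of 4.17 (SE 0.215, adjusted P = 1.16e-05) was the only one of the list above the median of the microglial markers. In all, 10 of the 41 genes changed by more than P2ry12 (1.54), the microglial marker with the smallest rise.

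Cd63, a tetraspanin of late endosomes and lysosomes, was at 48.4, 63.4 and 50.2 CPM in sham mice and at 152, 132 and 194 CPM in BCAS mice, a rise of 1.56 (adjusted P = 0.00015). Lamp2, a main glycoprotein of the membrane that also takes part in chaperone-mediated autophagy, was at 103, 133 and 98.1 CPM in sham mice and at 266, 218 and 321 CPM in BCAS mice, a rise of 1.27 (SE 0.159, adjusted P = 0.000552). For both genes sham mouse 2 was the highest sham mouse and BCAS mouse 2 the lowest BCAS mouse, as for the summed choroid plexus markers. Other members, among them Man2b1, Naglu, Psap and Tpp1, shared this pattern. Among BCAS mice, Cd63 and Lamp2 were highest in mouse 3, while the choroid plexus sum was highest in mouse 1. In the mice with the least choroid plexus RNA, sham mouse 3 and BCAS mouse 2, the levels were 98.1 and 218 CPM for Lamp2 and 50.2 and 132 CPM for Cd63. An alternative chosen after seeing the data left out sham mouse 2 and BCAS mouse 1, the highest of each group in choroid plexus markers. The log2 fold changes were then 1.42 for Lamp2 and 1.73 for Cd63, and 30 of the 41 genes were higher with 18 DEGs. The part of choroid plexus RNA in these values was not tested.

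Lamp1, the partner of Lamp2, was at 319, 321 and 342 CPM in sham mice and at 580, 600 and 744 CPM in BCAS mice. The groups were far apart, and its rise of 0.97 (SE 0.112, adjusted P = 0.000352) was just under the DEG threshold. Cln3, a membrane protein lost in juvenile Batten disease, rose by 0.98, and Scarb2, the receptor that carries glucocerebrosidase to lysosomes, by 0.59. Npc1, the membrane protein that passes cholesterol out of the lysosome, was at 52.0, 52.4 and 43.1 CPM in sham mice and at 61.3, 63.6 and 81.7 CPM in BCAS mice, a rise of 0.49 (adjusted P = 0.0183) that was lost without sham mouse 3 (adjusted P = 0.0773). Mcoln1, the calcium channel TRPML1, did not pass the test. It was at 53.8, 53.7 and 59.7 CPM in sham mice and at 56.7, 60.5 and 61.7 CPM in BCAS mice, with a log2 fold change of 0.10 (interval -0.08 to 0.27, adjusted P = 0.376).

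Progranulin and TFEB both rose. Grn, the precursor of the lysosomal granulins, was at 53.1, 50.4 and 59.3 CPM in sham mice and at 281, 346 and 540 CPM in BCAS mice. All BCAS mice were several times above the sham mice, and BCAS mouse 3 was almost 2 times BCAS mouse 1. The log2 fold change was 2.84 (SE 0.221, adjusted P = 4.65e-05), the largest of the list after Cd68. Tfeb was at 9.77, 11.2 and 8.98 CPM in sham mice and at 15.9, 15.2 and 22.0 CPM in BCAS mice. It rose by 0.83 (SE 0.167, adjusted P = 0.00627), the median of the list. These are mRNA levels, and whether TFEB protein was in the nucleus was not measured.

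The promoter motifs shown above were set beside the calls. Only the 37 genes with a window were counted, so 15 of the 19 genes that were higher below the DEG threshold entered. The core CACGTG stood in windows of 3 of 15 DEGs, 3 of these 15 genes and 4 of 7 genes that did not pass the test. Of the 3 genes with the palindrome TCACGTGA, Cln3 rose by 0.98 while Gla and Mcoln1 did not pass the test. Lamp1, with 4 cores, rose by 0.97, and Cd68 and Grn, without a match, rose by 4.17 and 2.84. These counts are small and were not tested.

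The enzymes and the other proteins of the list were then compared as groups. Of 28 enzymes 22 rose, 9 as DEGs, with a median log2 fold change of 0.74. Of the 13 other genes, which are helpers, membrane proteins, Grn and Tfeb, 12 rose, 6 as DEGs, with a median of 0.98. Over all genes tested, 18.0% rose and 8.47% were up-regulated DEGs. By mouse, the mean log2 CPM of the glycosidases was 4.86 to 5.03 in the sham group and 5.94 to 6.23 in the BCAS group. For the sulfatases these values were 5.03 to 5.19 and 5.40 to 5.598, and for the membrane proteins 5.72 to 5.85 and 6.88 to 7.27. The groups of mice did not overlap in these means, which weight each gene equally. The summed sulfatase level, in which Ids weighs most, did overlap, at 701.5, 712.5 and 761.3 CPM in sham mice and 638.2, 744.9 and 577.1 CPM in BCAS mice.

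Storage disease genes were counted by the class of the human disease that follows their loss. Of 31 such genes 24 rose, 10 as DEGs, with a median of 0.76. The shares over all genes tested were 18.0% higher and 8.47% up-regulated DEGs. The 10 genes without a storage disease in this grouping (Lamp1, Cd63, Cd68, Lgmn, Plbd2, Naaa, Pla2g15, Acp2, Acp5 and Tfeb) all rose, 5 as DEGs, with a median of 1.11. In the sphingolipidoses 6 of 9 genes rose, with a median of 0.48 and a range from -0.04 for Smpd1 (Niemann-Pick disease types A and B) to 2.25 for Hexa (Tay-Sachs disease), and Gla (Fabry disease) and Arsa (metachromatic leukodystrophy) did not pass the test.

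In the mucopolysaccharidoses, diseases of glycosaminoglycan breakdown, 6 of 7 genes rose with a median of 0.76. They ran from Ids (Hunter syndrome) at -0.26 to Gusb (Sly syndrome) at 2.72. All 4 genes of the neuronal ceroid lipofuscinoses rose (Ppt1, Tpp1, Cln3 and Grn), with a median of 0.94, as did all 3 of sterol and neutral lipid storage (Npc1, Npc2 and Lipa), with a median of 1.19. Of the glycoproteinoses Man2b1, Manba and Fuca1 rose and Neu1, lost in sialidosis, did not pass the test. Loss of Lamp2 (Danon disease) or Gaa (Pompe disease) leads to glycogen storage in muscle, and their log2 fold changes were 1.27 and -0.24. Of the remaining disease genes Scarb2 rose and Mcoln1 did not pass the test.

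**Figure D3:**
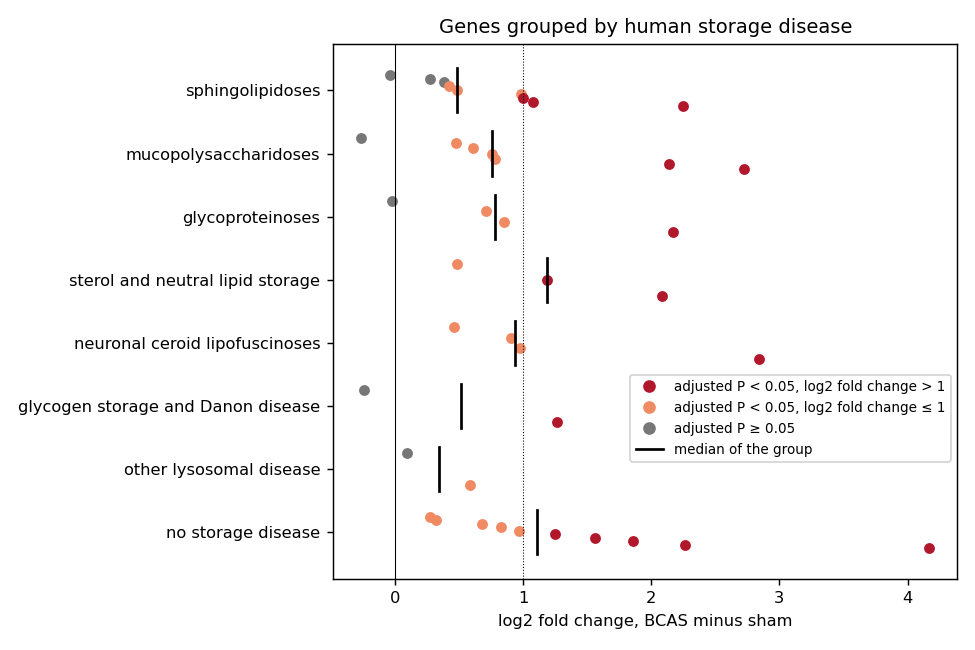
Log2 fold changes, BCAS minus sham, of the 41 genes on the horizontal axis, grouped by the class of human storage disease; each point is a gene, coloured by its call, and black bars are group medians, which run from 0.34 for the other lysosomal diseases to 1.19 for sterol and neutral lipid storage. Every class with more than 3 genes spans more than 2 log2 units between its lowest and highest gene.

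Some of the genes code for proteins that act together. The log2 ratio of CPM was computed within each mouse for 5 pairs, and the groups were compared by an exact two-sided permutation test, which cannot go below P = 0.1 for 3 against 3 mice. For Gm2a over Hexa, the activator and the enzyme subunit, the ratio had a mean of 0.54 ± 0.10 (SD, n = 3) in sham mice but -0.62 ± 0.13 in BCAS mice. For Npc2 over Npc1, which hand cholesterol from one to the other, it was 0.44 ± 0.14 and 2.02 ± 0.08. For Neu1 over Glb1, which form a complex with protective protein cathepsin A, it was 1.43 ± 0.09 and 0.41 ± 0.10. For Grn over Psap, whose proteins bind each other on the way to the lysosome, it was -4.75 ± 0.18 and -2.39 ± 0.43.

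These 4 ratios did not overlap between the groups and had the smallest P that the exact test allows, 0.1, or 0.125 after adjustment over the 5 pairs. The shift in each ratio follows from the fold changes of the genes in the pair, so it adds no separate evidence. The 3 BCAS mice agreed closely in Npc2 over Npc1 (1.96 to 2.11), whereas Grn over Psap was spread in them (-2.78, -2.47 and -1.92). For Lamp2 over Lamp1 the ratio was -1.57 ± 0.27 in sham mice against -1.27 ± 0.18 under BCAS. The groups overlapped (exact permutation P = 0.2, adjusted 0.2), and within each group the ratio followed the order of the choroid plexus markers. The part of choroid plexus RNA in this ratio was not tested.

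**Figure D4:**
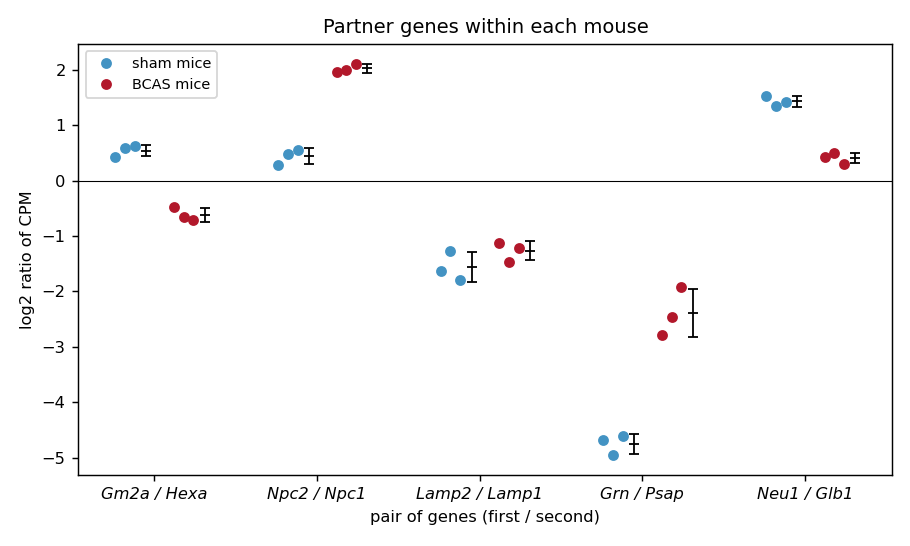
Log2 ratio of CPM within each mouse for 5 pairs of genes, the first over the second; points are mice, and black bars are the mean ± SD of 3 mice. Of the 5 ratios only Lamp2 over Lamp1 overlaps between the groups, and no pair can go below P = 0.1 in the exact test.

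Levels between genes were compared as CPM per kb of annotated exon, which depends on the isoforms in the annotation. In sham mice Psap was first (533 CPM per kb), followed by Ids (124), Lamp1 (122), Gaa (79.3), Lgmn (39.2) and Smpd1 (34.3). Ids and Lamp1 were close to each other in mean level. Of these 6 abundant genes, 3 are among the 7 that did not pass the test (Ids, Gaa and Smpd1). At the low end stood Acp5 (0.141 CPM per kb), below Sgsh (1.27), Manba (1.75) and Tfeb (1.76). The order was different in BCAS mice, where Lamp1 (240), Lgmn (142), Hexa (115), Grn (112) and Ids (104) followed Psap (715), and Cd68 went from 5.50 to 98.8 CPM per kb.

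The composition of the lysosomal RNA differed accordingly. Psap made up 41.3%, 43.5% and 41.1% of the summed CPM per kb of the 41 genes in sham mice 1 to 3 and 34.8%, 33.5% and 29.9% in BCAS mice 1 to 3. Cd68 made up 0.409% to 0.475% in the sham group and 3.76% to 5.37% in the BCAS group, and Npc2 0.911% to 1.02% and 2.17% to 2.60%. The share of Lamp1 moved little, from 9.14% to 9.98% in the sham group to 10.7% to 11.1% in the BCAS group, beside a 1.96-fold higher mean level.

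**Figure D5:**
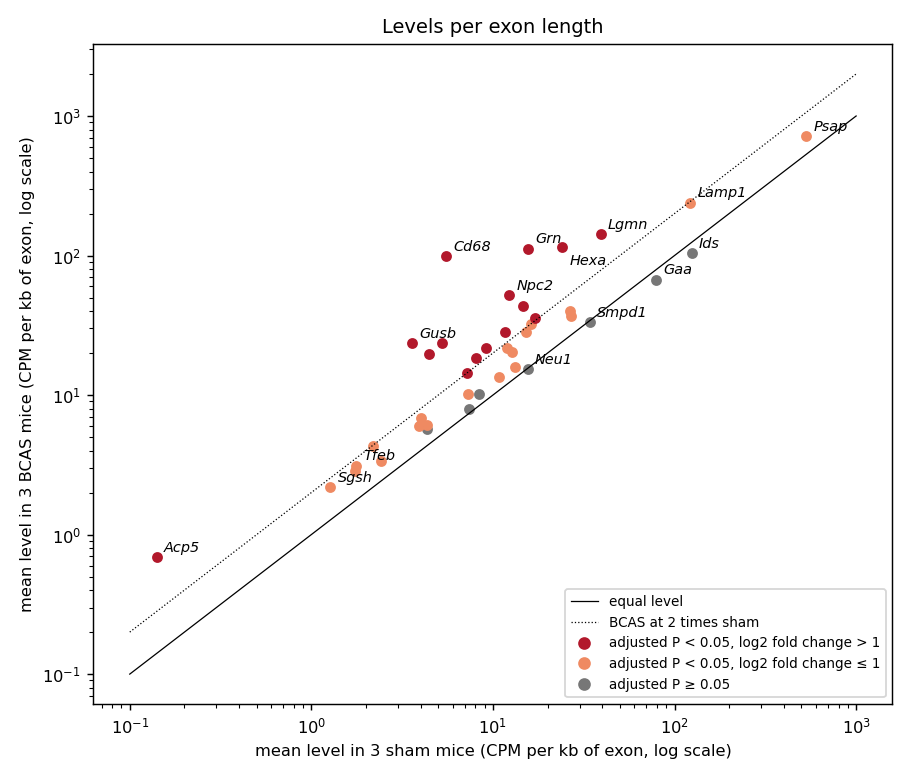
Mean level of each gene in 3 BCAS mice (vertical axis) against 3 sham mice (horizontal axis), in CPM per kb of exon on log scales; the solid line marks equal levels and the dotted line BCAS at 2 times sham. Psap is highest in both groups, Cd68 lies farthest above the lines, and the abundant genes Ids, Gaa and Smpd1 lie on or below the solid line.

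Of 21 other lysosomal enzymes and membrane proteins that were not in the list 13 rose (61.9%), 7 as DEGs, and none fell. Among all genes tested, 18.0% rose and 13.2% fell. The median log2 fold change of the 21 genes was 0.54. Every BCAS mouse lay above every sham mouse in 13 of them and below in 2. Over the 18617 genes tested these counts were 4713 and 4229. Slc11a1, the metal transporter of phagocyte lysosomes, rose by 3.84, and Laptm5, a lysosomal membrane protein of blood cells, by 3.47.

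Of 11 genes for the sorting and maturation of lysosomal enzymes 6 rose (54.5%) and 1 fell, with a median of 0.27. Among all genes tested, 18.0% rose and 13.2% fell. The rises were led by Ctsa, the protective protein that binds Neu1 and Glb1 (1.77, a DEG), Nagpa, which uncovers the mannose 6-phosphate tag (0.995), and Sumf1, the activator of the sulfatases (0.62). Sort1, a sorting receptor abundant in neurons that also takes up progranulin, fell by 0.43 (adjusted P = 0.0205). Of 17 genes of the mTORC1 complex and its control of TFEB, 3 rose and 4 fell, with a median of -0.035. The share that rose, 17.6%, was close to the 18.0% of all genes tested. Falls were found in 13.2% of all genes tested. Those that rose were Mitf (0.82), Tfe3 (0.58) and Flcn (0.41), which regulates the Rag GTPases. Ppp3cb, a catalytic subunit of calcineurin, fell by 0.67, Ywhaz, a 14-3-3 protein, by 0.49, Rraga, a Rag GTPase, by 0.36, and Rheb, the activator of mTORC1, by 0.33.

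Part of the exons of 15 members overlaps another gene, from 1.96% of the exon length of Grn to 39.9% of that of Arsb, with 21.6% for Sgsh, 18.8% for Arsa and 12.8% for Hexa. Reads on such stretches were counted for neither gene, so the levels of these members leave out part of their reads. Strand was ignored in counting, so reads from overlapping genes on opposite strands could not be told apart.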

How the data were processed

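RNA-seq libraries of the right hippocampus of 3 sham and 3 BCAS mice were used, grouped by their labels, which call them biological replicates. Per the paper's methods and the file headers, the authors trimmed reads with Trim Galore, aligned them to mm10 with HISAT2 and deposited raw counts per gene from featureCounts. The methods give featureCounts version 1.6.3 and the headers 2.0.3. The headers show counting without regard to strand, with each mate of a pair counted on its own and with no counts for multi-mapped reads or reads shared by genes. The 95% intervals rest on the spread between these mice, as moderated across genes by edgeR. Each SE was derived from the log2 fold change and the test statistic of the gene.

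Genes kept by filterByExpr were normalized by TMM and tested with edgeR 4.0.16 in R 4.3.3 (quasi-likelihood test, no covariates, Benjamini-Hochberg adjustment). The steps were tested on simulated data. Log2 CPM used a prior count of 2. The common biological coefficient of variation was 0.161. TMM factors were 0.964 to 0.984 in sham and 1.008 to 1.053 in BCAS libraries. All members are named, with values in every mouse for the largest and smallest change of each role class, the partner pairs, Tfeb and Cd68, and others where a limit needed them. Lists of pathway genes and cell type markers were written by hand, and up to 3 genes past the test in each direction are named, except 1 that is not reported here. The members and all lists were chosen with earlier results of these data known. Alternatives were DESeq2 1.42.0, limma-voom (limma 3.58.1), RLE size factors, library totals, other filters, halved counts, a replicate block and leaving out each mouse.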

Additional observations from a re-analysis of the deposited data

How the results depend on the processing

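The count of 34 higher genes was 27 to 36 and that of 15 DEGs 13 to 18 over 14 alternatives, and 27 genes were higher and 13 were DEGs in each of them. The member median was 0.70 to 0.92, and library totals moved the median of all genes from 0.02 to 0.10. Lower genes numbered 1 with DESeq2 and 1 with RLE size factors (Gaa in both), and 0 to 2 when 1 mouse was left out, the 2 being Gaa and Ids without BCAS mouse 2. The sign of Neu1 turned with library totals (0.054) and its value ran from -0.071 without sham mouse 1 to 0.001 without sham mouse 3, and that of Smpd1 with library totals (0.038), all without passing the test. With library totals Arsa and Gla passed (adjusted P = 0.0412 and 0.0377), and with DESeq2 Gla did (0.0492). The cause of these changes was not tested. With the replicate block 31 genes were higher, with Arsb (adjusted P = 0.0694), Npc1 (0.0552) and Psap (0.0892) lost, but mice of the same number did not deviate together, with correlations of 0.036, -0.314 and -0.158 across genes. Leaving out the mice with most choroid plexus RNA also ended the calls of Acp2 (0.0751), Plbd2 (0.0944), Psap (0.137) and Sgsh (0.0552) in edgeR. With these fewer mice their log2 fold changes were not smaller, at 0.345, 0.337, 0.488 and 0.865. With all mice they were 0.271, 0.319, 0.424 and 0.782. A test of 3 against 3 mice limits what small differences can show, and Acp5 is limited by its low counts.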
